A study of Homo sapiens with 6 samples.

Results

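Aminoacyl-tRNA synthetases are the enzymes that join each amino acid to its own tRNA. The 39 genes described here were chosen by name from the 58735 genes of the tables. They comprise 20 genes of the cytosolic enzymes, 16 genes of the mitochondrial enzymes, whose symbols end in 2, and the 3 scaffold genes *AIMP1*, *AIMP2* and *EEF1E1*. Symbols are those of the tables, so that *AARS*, for example, is the gene now called *AARS1*. RNA was measured in H2452 cells, an established human pleural mesothelioma (PM) line, in 3 sgCtrl libraries carrying a scrambled control sgRNA and labelled as wild type, and 3 sg*NF2*-1 libraries carrying an *NF2*-targeting sgRNA and labelled as *NF2* knockout. *NF2* encodes merlin, a tumour suppressor upstream of the Hippo pathway. Both groups carried the same lentiviral system, which expresses Cas9 and mCherry, were sorted for mCherry by the study's methods, and were grown untreated in RPMI-1640 medium with serum. Only 1 line and 1 *NF2*-targeting sgRNA were sequenced, and no clone was named. The study calls its replicates biological, but the labels of these libraries do not say whether they came from separate cultures, so the p-values measure only the spread between these libraries, which may be partly technical. The comparison of sg*NF2*-1 with sgCtrl asks which of these transcripts differed after *NF2* was targeted, and whether the cytosolic and mitochondrial sets differed alike.

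Each synthetase recognises its amino acid and the matching tRNAs, and the charged tRNA then carries the amino acid to the ribosome. Cytosol and mitochondria translate separately, and most amino acids have a separate nuclear gene for each compartment. In the cytosol, several synthetases are held with the scaffold proteins AIMP1, AIMP2 and EEF1E1 in the multisynthetase complex. Uncharged tRNA activates the kinase GCN2, which phosphorylates the initiation factor eIF2 and so favours translation of the transcription factor ATF4. Genes of several cytosolic synthetases are known targets of ATF4.

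Total counts per library ranged from 14782423 to 17416463. Values are given as CPM, with TMM-scaled library totals as the denominator, for a gene across libraries, and as FPKM, which also divides by gene length, for levels between genes. The targeted gene *NF2* had 73.7, 72.9 and 67.5 CPM in sgCtrl and 39.3, 52.0 and 41.4 CPM in sg*NF2*-1, lower in every sg*NF2*-1 library (log2 fold change -0.69, standard error 0.10, edgeR adjusted p = 7.9e-06). Of 11 mesothelial markers, 10 had at least 10 counts in every library, with summed CPM of 3773 to 4194 in sgCtrl and 4339 to 4789 in sg*NF2*-1, and *KRT5* was near 0. The markers did not move alike, since *MSLN*, *KRT7*, *THBD* and *KRT18* were higher in sg*NF2*-1 and *PDPN*, *WT1* and *KRT19* were lower (edgeR adjusted p under 0.05), and *VIM* and *KRT18* make up most of the sum. Among 5 markers of other cells, the leukocyte marker *PTPRC* was at 0 in all 6 libraries and *CD3E* and *VWF* were near 0, while *CD14* and *PECAM1* were detected, with a summed CPM of the 5 from 140.5 to 153.5 in sgCtrl and from 65.6 to 71.8 in sg*NF2*-1. The part of these markers in the results was not tested. In such bulk RNA, fewer cells of a type and less RNA per cell cannot be told apart.

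Transcripts of the cytosolic synthetases were higher in sg*NF2*-1. Of the 20 genes, 16 rose and 0 fell at a Benjamini-Hochberg adjusted p under 0.05 in edgeR's quasi-likelihood test, against 17.7% higher and 16.6% lower among all 14179 genes tested. The remaining 4 genes, *EPRS*, *HARS*, *DARS* and *RARS*, did not pass. All 39 genes passed the filter on low counts. The log2 fold changes of the 20 ran from 0.0084 to 0.88 with a median of 0.53, and the median of all tested genes was -0.0025. For 17 of the 20, the sg*NF2*-1 libraries all exceeded the sgCtrl ones, a pattern seen in 23.2% of all tested genes. With the thresholds of the study's methods, an unadjusted p under 0.05 and a log2 fold change above 0.5, 11 of the 20 were higher, against 9.22% of all tested genes. On the deposited FPKM, tested with limma, 16 of the 20 were also higher, against 14.3% of 13038 genes.

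**Figure D1:**
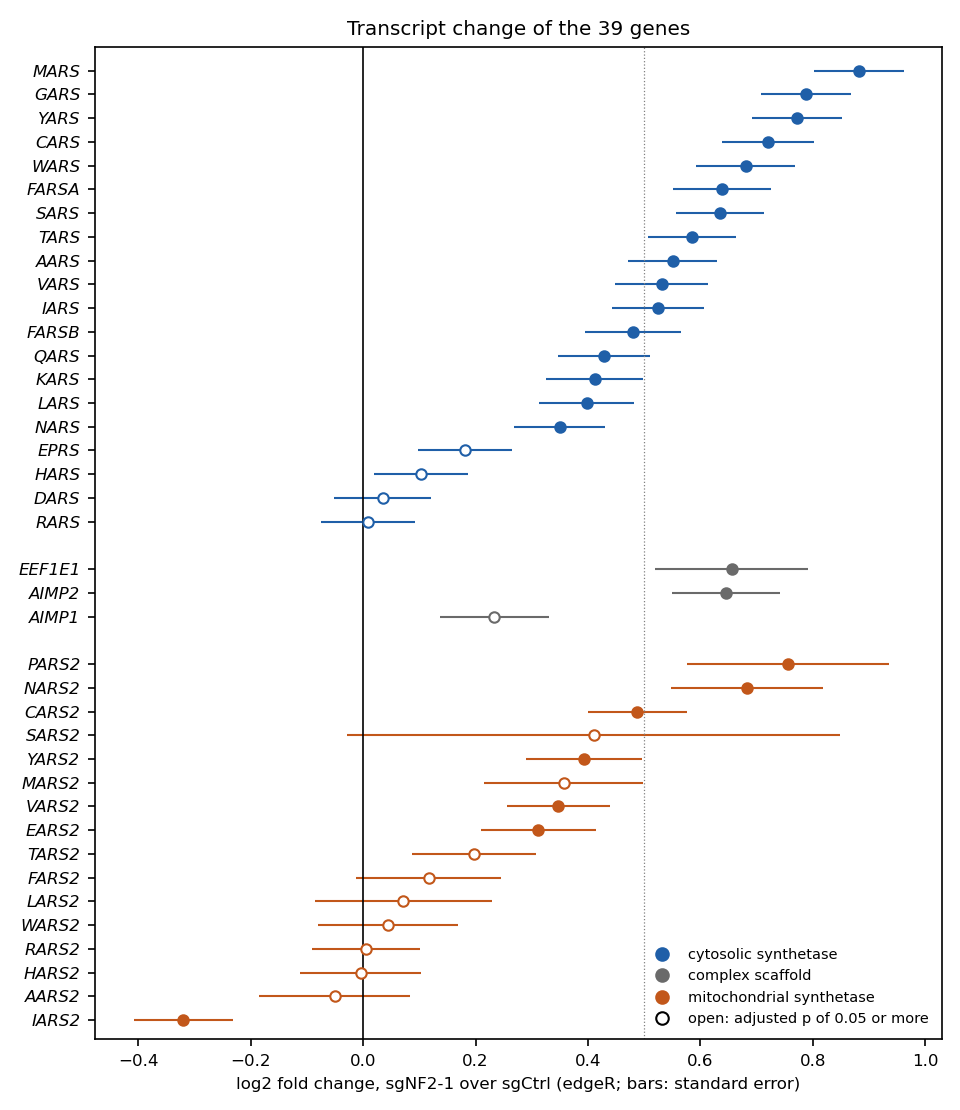
Log2 fold change of each of the 39 genes in sg*NF2*-1 over sgCtrl (horizontal axis, edgeR), with bars of 1 standard error; filled points passed an adjusted p under 0.05, and the dotted line marks 0.5. The 20 cytosolic genes (blue) all lie above 0, from 0.0084 to 0.88, whereas the 16 mitochondrial genes (orange) spread from -0.32 to 0.76.

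*MARS* (chr12:57475445-57517569, GRCh38), the methionyl-tRNA synthetase and a member of the multisynthetase complex, had the largest change of the 39. Its level was 262, 249 and 252 CPM in sgCtrl and 443, 475 and 487 CPM in sg*NF2*-1. The groups did not overlap, and all 3 sg*NF2*-1 libraries were high (log2 fold change 0.88, standard error 0.080, adjusted p = 5.1e-09 in edgeR's quasi-likelihood test, as for all adjusted p-values below). The exons of *MARS* share 13.3% of their length with other genes. On the opposite strand, 7.38% is shared with *ARHGAP9*, which had 0 to 12 counts per library, and 5.05% with *DDIT3*. *DDIT3* had 447 to 1033 counts per library, against at least 3825 for *MARS*, and was also higher in sg*NF2*-1 (log2 fold change 0.95, standard error 0.10). Whether the counting used strand is not given in the sources used here, so that reads in the shared stretch cannot be told apart. By GENCODE release 29, 23 of the 39 genes share some exon bases with another gene, 8 of them over more than 10% of their exon length.

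*GARS* (chr7:30594681-30634033) encodes glycyl-tRNA synthetase, and one gene supplies both the cytosolic and the mitochondrial form. It had 244, 245 and 262 CPM in sgCtrl and 443, 446 and 407 CPM in sg*NF2*-1 (log2 fold change 0.79, standard error 0.080, adjusted p = 3.5e-08). *YARS* (chr1:32775237-32818153), the tyrosyl-tRNA synthetase, had 263, 257 and 266 CPM in sgCtrl and 417, 458 and 467 CPM in sg*NF2*-1 (log2 fold change 0.77, standard error 0.080, adjusted p = 4.9e-08). In both genes the sgCtrl libraries lay close together and the sg*NF2*-1 libraries were all higher. *CARS* (chr11:3000922-3057613) encodes cysteinyl-tRNA synthetase and had 124, 127 and 145 CPM in sgCtrl and 219.6, 213 and 221 CPM in sg*NF2*-1 (log2 fold change 0.72, standard error 0.082, adjusted p = 2.1e-07). *WARS* (chr14:100333788-100376805), the tryptophanyl-tRNA synthetase, is also known as an interferon-inducible gene. It had 203, 213 and 251 CPM in sgCtrl and 339, 376 and 353 CPM in sg*NF2*-1 (log2 fold change 0.68, standard error 0.087, adjusted p = 1.3e-06). The sgCtrl libraries of *WARS* were the more spread, with replicate 3 the highest, but stayed below all sg*NF2*-1 libraries. The exons of *WARS* share 10.6% of their length with other genes. Of this, 4.51% is with *WDR25* on the opposite strand, which had 108 to 206 counts, against at least 3199 for *WARS*.

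*FARSA* (chr19:12922479-12934037) encodes the catalytic alpha subunit of phenylalanyl-tRNA synthetase, which works as a tetramer with the product of *FARSB*. *FARSA* had 144, 128 and 141 CPM in sgCtrl and 197, 207 and 238 CPM in sg*NF2*-1 (log2 fold change 0.64, standard error 0.087, adjusted p = 2.9e-06). *FARSB* also rose, by less, 0.48 in log2 (standard error 0.086, adjusted p = 1.0e-04). The difference between the subunits was not tested. *SARS* (chr1:109213918-109238169), the seryl-tRNA synthetase, which also charges the selenocysteine tRNA, had 261, 256 and 273 CPM in sgCtrl and 406, 405 and 416 CPM in sg*NF2*-1 (log2 fold change 0.64, standard error 0.078, adjusted p = 6.6e-07). *TARS* (chr5:33440696-33469539), the threonyl-tRNA synthetase, had 232, 224 and 242 CPM in sgCtrl and 357, 343 and 346 CPM in sg*NF2*-1 (log2 fold change 0.58, standard error 0.078, adjusted p = 2.3e-06). The groups did not overlap for *FARSA*, *SARS* or *TARS*.

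**Figure D2:**
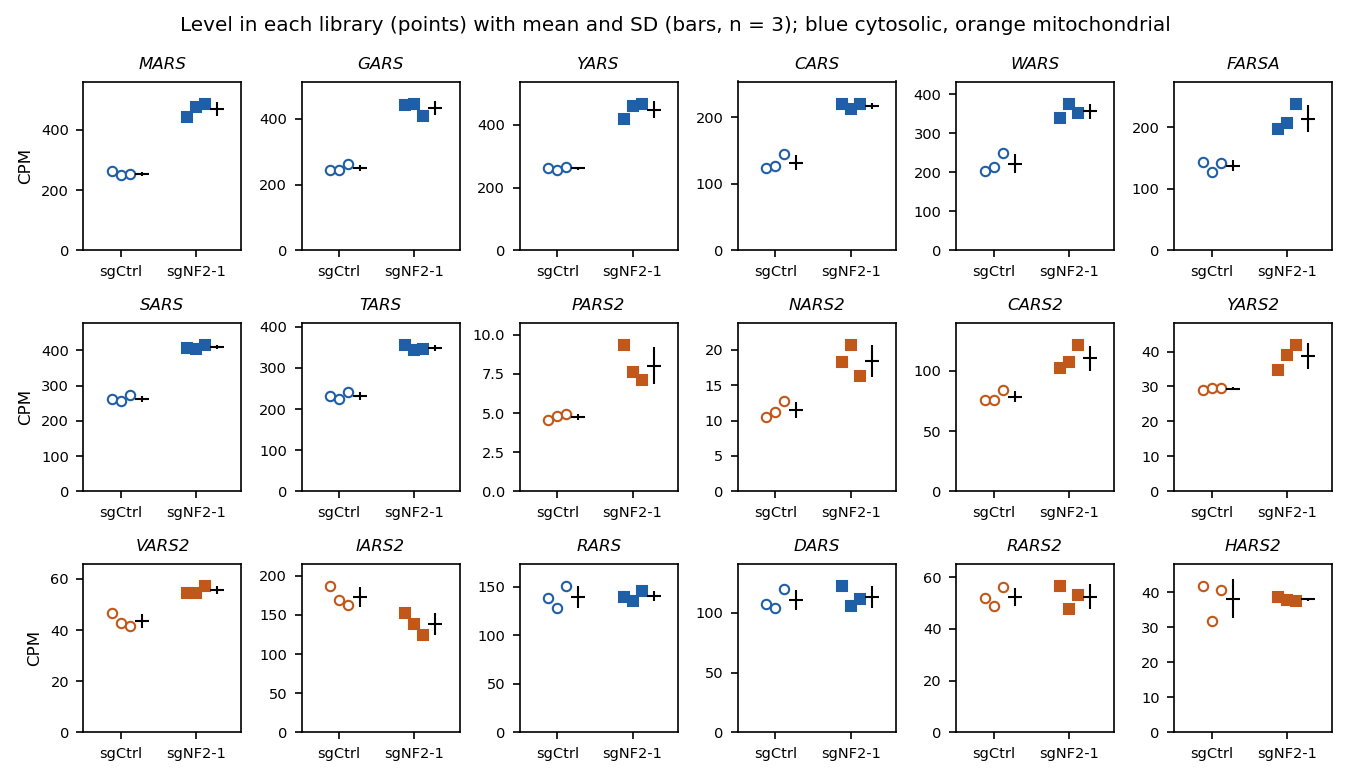
CPM (vertical axis, from 0) of 18 genes in each sgCtrl library (open circles) and sg*NF2*-1 library (filled squares), with the mean and SD of 3 libraries in black; cytosolic genes are blue and mitochondrial genes orange. In the first 13 panels all sg*NF2*-1 libraries lie above all sgCtrl libraries, *IARS2* is the reverse, and the 4 last panels, *RARS*, *DARS*, *RARS2* and *HARS2*, overlap.

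The other 7 cytosolic genes that rose had log2 fold changes from 0.35 to 0.55, with standard errors from 0.079 to 0.086 and adjusted p-values of at most 0.0015. *AARS*, the alanyl-tRNA synthetase, changed by 0.55, and *VARS*, the valyl-tRNA synthetase, by 0.53. Both lie outside the multisynthetase complex, as does *NARS*, the asparaginyl-tRNA synthetase, at 0.35. The other 4 enzymes that rose are parts of the complex, namely *IARS* (isoleucine) at 0.52, *QARS* (glutamine) at 0.43, *KARS* (lysine) at 0.41 and *LARS* (leucine, also known as a leucine sensor for mTORC1) at 0.40. *KARS*, like *GARS*, supplies the enzyme of both compartments.

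Of the 4 cytosolic genes that did not pass, *RARS* and *DARS* had the smallest changes of the 20. *RARS*, the arginyl-tRNA synthetase, had 139, 129 and 151 CPM in sgCtrl and 140.0, 135 and 146 CPM in sg*NF2*-1, and the groups overlapped (log2 fold change 0.0084, standard error 0.083, adjusted p = 0.95). *DARS*, the aspartyl-tRNA synthetase, had 107, 104 and 120.2 CPM in sgCtrl and 123, 106 and 111 CPM in sg*NF2*-1, again overlapping (log2 fold change 0.035, standard error 0.087, adjusted p = 0.79). *HARS*, the histidyl-tRNA synthetase, changed by 0.10 in log2 (standard error 0.084, adjusted p = 0.37), although its sg*NF2*-1 libraries were all the higher. *EPRS*, which joins the glutamyl and prolyl enzymes in 1 chain, had 0.18 (standard error 0.084, adjusted p = 0.099), and passed without sgCtrl replicate 3 (adjusted p = 0.038) or without sg*NF2*-1 replicate 3 (0.042). *RARS*, *DARS* and *EPRS* are parts of the multisynthetase complex, and *HARS* is not.

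Against 17.7% of all tested genes, and 26.0% of those with a mean of at least 50 CPM, the sets within the cytosolic genes stood as follows. By complex, 5 of the 8 cytosolic enzymes of the complex rose, with a median log2 fold change of 0.40, and 11 of the 12 enzymes outside it rose, with a median of 0.61. The difference between these sets was not tested. By the fold of the catalytic domain, 8 of 9 class I genes rose (median 0.53) and 8 of 10 class II genes rose (median 0.52), with *EPRS*, which holds both classes, counted in neither. Of the 3 scaffold genes, 2 rose, again beside 17.7% of all tested genes. *EEF1E1*, the smallest of the 3 proteins and also called AIMP3, had 11.0, 12.8 and 16.1 CPM in sgCtrl and 22.0, 19.9 and 21.0 CPM in sg*NF2*-1 (log2 fold change 0.66, standard error 0.14, adjusted p = 5.2e-04). *AIMP2*, which holds the parts of the complex together, had 36.2, 40.6 and 43.9 CPM in sgCtrl and 58.7, 66.2 and 63.9 CPM in sg*NF2*-1 (log2 fold change 0.65, standard error 0.097, adjusted p = 1.1e-05). The groups did not overlap for either gene. The exons of *EEF1E1* share 18.7% of their length with *EEF1E1-BLOC1S5* on the same strand, which had 0 to 1 counts. The exons of *AIMP2* share 28.9% of their length with *EIF2AK1* on the opposite strand, which had 2320 to 3158 counts, so its value is uncertain. *AIMP1* had 46.5, 43.0 and 51.4 CPM in sgCtrl and 54.6, 51.3 and 59.7 CPM in sg*NF2*-1, overlapping between the groups (log2 fold change 0.23, standard error 0.097, adjusted p = 0.065). It passed without sgCtrl replicate 3 (adjusted p = 0.024) and with the replicate number as a block (0.041).

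Transcripts of the mitochondrial synthetases were less uniform than the cytosolic ones, with 13 log2 fold changes above 0 and 3 below. Of the 16 genes, 6 rose, 1 fell and 9 did not pass, with a median log2 fold change of 0.25 and a range from -0.32 to 0.76. The share that rose stands beside 17.7% of all tested genes, and the 1 that fell beside 16.6%. That median was 0.13 without sgCtrl replicate 2. For 7 of the 16, the sg*NF2*-1 libraries all exceeded the sgCtrl ones (23.2% of all tested genes), and for 1 they were all below (22.2%). By the thresholds of the study's methods, 2 of the 16 were higher, against 9.22% of all tested genes. On FPKM, 6 of the 15 tested were higher (14.3% of all genes) and 1 was lower.

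*PARS2* (chr1:54756898-54764514), the mitochondrial prolyl-tRNA synthetase, had the largest rise, from a low level, at 4.57, 4.81 and 4.94 CPM in sgCtrl and 9.38, 7.65 and 7.09 CPM in sg*NF2*-1 (log2 fold change 0.76, standard error 0.18, adjusted p = 0.0020). *NARS2* (chr11:78435961-78574874), the asparaginyl enzyme, had 10.5, 11.3 and 12.7 CPM in sgCtrl and 18.3, 20.7 and 16.2 CPM in sg*NF2*-1 (log2 fold change 0.68, standard error 0.14, adjusted p = 3.3e-04). In both, the lowest sg*NF2*-1 library was above the highest sgCtrl library. *CARS2* (chr13:110641412-110713603), the cysteinyl enzyme, which is also known to make cysteine persulfides, had 76.2, 75.7 and 84.2 CPM in sgCtrl and 102, 107 and 122 CPM in sg*NF2*-1 (log2 fold change 0.49, standard error 0.088, adjusted p = 1.2e-04). *YARS2* (chr12:32727490-32755902), the tyrosyl enzyme, had 28.9, 29.6 and 29.6 CPM in sgCtrl and 34.7, 39.1 and 42.0 CPM in sg*NF2*-1 (log2 fold change 0.39, standard error 0.10, adjusted p = 0.0045). *VARS2* (chr6:30908242-30926459), the valyl enzyme, had 46.7, 42.6 and 41.6 CPM in sgCtrl and 54.6, 54.6 and 57.4 CPM in sg*NF2*-1 (log2 fold change 0.35, standard error 0.092, adjusted p = 0.0046). None of these 3 genes overlapped between the groups. The exons of *VARS2* share 22.0% of their length with *GTF2H4* on the same strand, which had 0 to 7 counts. *EARS2*, the glutamyl enzyme, rose by 0.31 in log2 (standard error 0.10, adjusted p = 0.019), and did not pass without sgCtrl replicate 1 (adjusted p = 0.11) or without sg*NF2*-1 replicate 2 (0.079).

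*IARS2* (chr1:220094102-220148041), the mitochondrial isoleucyl-tRNA synthetase, was the only one of the 39 genes to fall. It had 188, 169 and 163 CPM in sgCtrl and 152, 139 and 124 CPM in sg*NF2*-1, and all 3 sgCtrl libraries exceeded the sg*NF2*-1 ones (log2 fold change -0.32, standard error 0.088, adjusted p = 0.0062). Over the alternatives its log2 fold change stayed between -0.39 and -0.24. *IARS2* was also the most abundant of the mitochondrial set, with a mean FPKM of 39.3 ± 2.98 (SD, n = 3) in sgCtrl against 31.2 ± 3.19 (SD, n = 3) in sg*NF2*-1.

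Among the 9 mitochondrial genes that did not pass, *HARS2* and *RARS2* had the smallest changes. *HARS2*, the histidyl enzyme, had 41.9, 31.7 and 40.7 CPM in sgCtrl and 38.5, 37.8 and 37.6 CPM in sg*NF2*-1 (log2 fold change -0.0048, standard error 0.11, adjusted p = 0.98). *RARS2*, the arginyl enzyme, had 52.0, 48.9 and 56.1 CPM in sgCtrl and 56.7, 47.5 and 53.2 CPM in sg*NF2*-1 (log2 fold change 0.0054, standard error 0.096, adjusted p = 0.97). The groups overlapped for both, as they did for the cytosolic *RARS*. *MARS2*, the methionyl enzyme, changed by 0.36 in log2 (standard error 0.14, adjusted p = 0.053). It passed without sgCtrl replicate 2 (adjusted p = 0.038), without sg*NF2*-1 replicate 3 (0.043) and with the replicate number as a block (0.043). *TARS2*, the threonyl enzyme, had 0.20 (standard error 0.11, adjusted p = 0.17) and passed only without sgCtrl replicate 3 (adjusted p = 0.035). *FARS2*, *LARS2*, *WARS2* and *AARS2*, for phenylalanine, leucine, tryptophan and alanine, had values of 0.12, 0.071, 0.044 and -0.051, with standard errors from 0.12 to 0.16. *SARS2*, the seryl enzyme, was near the limit of detection at 7 to 18 counts per library (log2 fold change 0.41, standard error 0.44, adjusted p = 0.50), and 46.2% of its exon length is shared with another annotated gene on the same strand. A further 10.8% is shared with *MRPS12* on the opposite strand, which had 570 to 808 counts, so the level of *SARS2* is uncertain.

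The sets also differed in level and in the precision of each fold change. In sgCtrl the cytosolic genes ranged from 9.50 FPKM (*HARS*) to 79.8 FPKM (*AARS*), with a median of 32.3. The mitochondrial genes ranged from 0.225 FPKM (*SARS2*) to 39.3 FPKM (*IARS2*), with a median of 4.33. Standard errors of the log2 fold change ran from 0.078 to 0.087 for the cytosolic genes and, *SARS2* aside, from 0.088 to 0.18 for the mitochondrial ones. Of the 4182 tested genes with a mean of at least 50 CPM, 26.0% rose, and of the 9997 below it, 14.3% rose. All 20 cytosolic genes lie in the first class, where 16 rose. The mitochondrial genes divide into 3 in the first class (*CARS2*, *IARS2* and *RARS2*), of which 1 rose, and 13 in the second, of which 5 rose. This division was chosen after the values were seen.

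**Figure D3:**
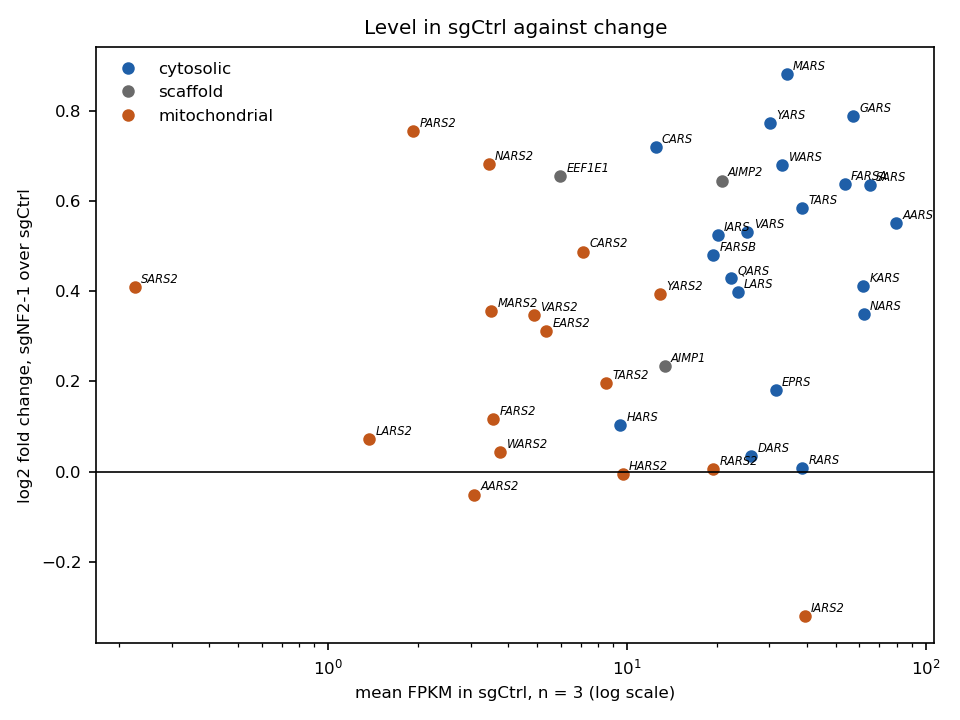
Mean FPKM in the 3 sgCtrl libraries (horizontal axis, log scale) against the log2 fold change in sg*NF2*-1 over sgCtrl (vertical axis) for the 39 genes. The mitochondrial genes lie mostly to the left, with *IARS2*, at 39.3 FPKM, among the cytosolic levels and below 0.

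Summed over the 20 cytosolic genes, the level was 744 ± 30.9 in sgCtrl and 1063 ± 13.1 in sg*NF2*-1 (SD, n = 3 each), as FPKM, 1.43 times as high. Summed over the 16 mitochondrial genes it was 128 ± 4.54 in sgCtrl and 135 ± 1.71 in sg*NF2*-1 (SD, n = 3 each), 1.05 times as high. Without *IARS2*, left out after its values were seen, the mitochondrial sum was 88.9 ± 4.52 in sgCtrl and 104 ± 1.51 in sg*NF2*-1 (SD, n = 3 each), 1.17 times as high. The summed FPKM of the scaffolds was 40.1 ± 3.92 in sgCtrl and 57.1 ± 1.81 in sg*NF2*-1 (SD, n = 3 each). The cytosolic sum was 5.60, 5.84 and 5.97 times the mitochondrial sum in the sgCtrl libraries and 7.67, 7.95 and 8.03 times in the sg*NF2*-1 libraries. Every sg*NF2*-1 library thus held more transcript of the cytosolic set for each of the mitochondrial set than any sgCtrl library. The cytosolic sum includes *GARS* and *KARS*, which supply both compartments, and the ratio was not taken without them. Their mean FPKM was 57.1 and 61.8 in sgCtrl and 97.7 and 81.5 in sg*NF2*-1. The difference between the sets as wholes was not tested.

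For 13 amino acids, 1 cytosolic and 1 mitochondrial gene could be set against each other within each library, as the log2 ratio of their FPKM, in which the depth of the library cancels. The groups did not overlap for 9 of the 13 pairs. Among the CPM of all single genes tested, 23.2% did not overlap with sg*NF2*-1 above and 22.2% with sg*NF2*-1 below. In 8 of the 9 pairs the ratio was higher in sg*NF2*-1, towards the cytosolic gene, and in 1, *NARS*/*NARS2*, it was lower. The isoleucine pair moved most. Its log2 ratio was -1.13, -0.94 and -0.83 in the sgCtrl libraries and -0.20, -0.062 and -0.10 in the sg*NF2*-1 libraries, a difference of 0.84, and the mitochondrial gene stayed the more abundant in all 6 libraries. Both genes contributed, as *IARS* rose and *IARS2* fell.

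The tryptophan pair *WARS*/*WARS2* had log2 ratios of 2.91, 3.19 and 3.29 in the sgCtrl libraries and 3.67, 3.82 and 3.82 in the sg*NF2*-1 libraries, a difference of 0.64. The alanine pair *AARS*/*AARS2* had 4.67, 4.70 and 4.70 in the sgCtrl libraries and 5.32, 5.11 and 5.47 in the sg*NF2*-1 libraries, a difference of 0.61. In these pairs the cytosolic gene rose and the mitochondrial gene did not pass. The pairs for methionine, tyrosine, threonine, cysteine and valine differed by 0.52, 0.38, 0.38, 0.24 and 0.18. The asparagine pair had 4.25, 4.13 and 4.13 in the sgCtrl libraries and 3.84, 3.71 and 3.97 in the sg*NF2*-1 libraries, a difference of -0.33, with *NARS2* rising more than *NARS*. The pairs for leucine, serine, histidine and arginine overlapped, with differences of 0.32, 0.15, 0.096 and 0.0081. Each of the 9 pairs without overlap had p = 0.10 in a two-sided exact permutation test, the smallest that 3 libraries against 3 allow, and 0.14 after Benjamini-Hochberg adjustment over the 13 pairs, so this test could not bring a single pair under 0.05. *HARS* and *HARS2* lie head to head on chromosome 5, and 11.7% of the exon length of *HARS2* is shared with *HARS*, so that pair is uncertain.

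**Figure D4:**
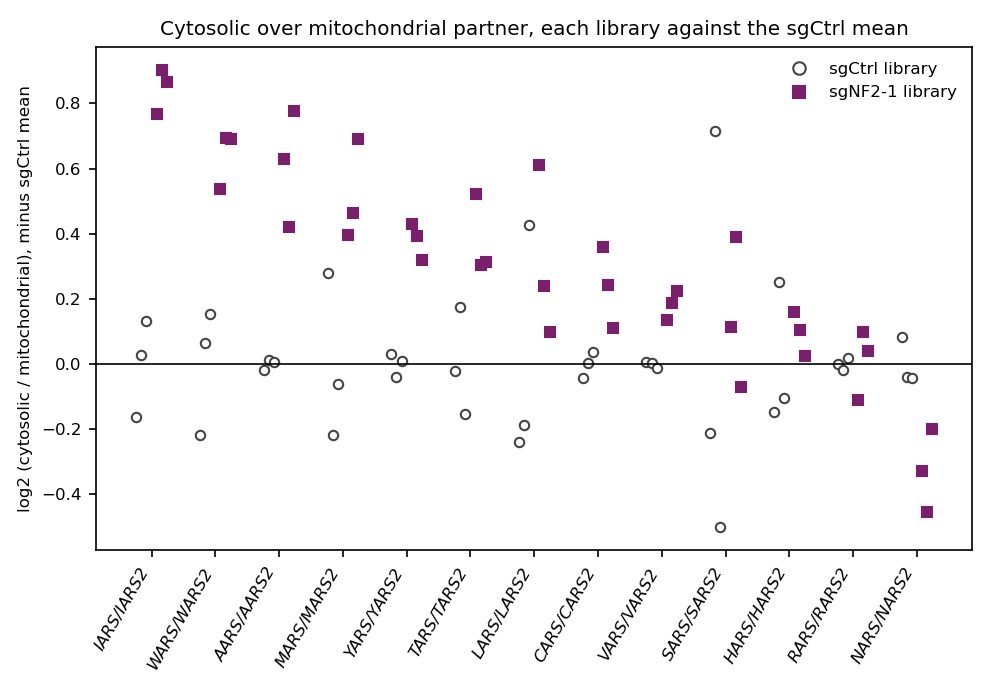
Log2 ratio of the cytosolic over the mitochondrial gene of each pair (vertical axis), minus the mean of the 3 sgCtrl libraries, for each sgCtrl library (open circles) and sg*NF2*-1 library (filled squares), ordered by the difference between the groups. *IARS*/*IARS2* stands highest, with a difference of 0.84, and *NARS*/*NARS2* is the one pair whose sg*NF2*-1 libraries all lie below the sgCtrl libraries.

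RefSeq promoter sequences (GRCh38.p14, from 250 bases before to 50 bases after the RefSeq start of the gene) were matched for 33 of the 39 genes. The RefSeq start can lie well inside the span of the gene counted, as for *MARS* and *CARS2*. *DARS*, *LARS*, *VARS*, *YARS*, *AARS2* and *VARS2* had no entry. The letters TGATGNAA, the core of the C/EBP-ATF response element that ATF4 is known to bind, were looked for on both strands. They were found in 6 of the 16 cytosolic promoters, or 37.5%, in 1 of the 14 mitochondrial ones (*YARS2*) and in 0 of the 3 scaffold ones, and in 1.69% of the promoters of 10479 tested genes. All 6 cytosolic genes rose. Of the 13 matched cytosolic genes that rose, 6 had the letters, and of the 3 that did not pass, 0 had them. The 6 are shown because the same 8 letters recur in each. Each line is 30 bases, 5′ to 3′ on the strand of the gene, with the match in capitals. It reads TTGCATCA where the element lies on the other strand and TGATGCAA where it lies on the strand of the gene.
AARS: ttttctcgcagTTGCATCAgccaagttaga
CARS: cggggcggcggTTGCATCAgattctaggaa
IARS: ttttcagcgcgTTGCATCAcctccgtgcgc
MARS: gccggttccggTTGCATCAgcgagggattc
NARS: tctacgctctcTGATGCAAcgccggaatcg
TARS: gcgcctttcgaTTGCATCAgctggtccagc

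These windows are at chr16:70289675-70289704 (minus strand), chr11:3057407-3057436 (minus strand), chr9:92293692-92293721 (minus strand), chr12:57488053-57488082 (plus strand), chr18:57621804-57621833 (minus strand) and chr5:33440956-33440985 (plus strand), in GRCh38.p14. In *CARS*, *IARS*, *MARS*, *NARS* and *TARS* the match began within 15 bases of the RefSeq start, on either side, and in *AARS* it began further upstream, at position -187 from the start. Beside them, the log2 fold changes were 0.55 for *AARS*, 0.72 for *CARS*, 0.52 for *IARS*, 0.88 for *MARS*, 0.35 for *NARS* and 0.58 for *TARS*. The members with the letters thus included both the largest cytosolic change and the smallest that passed. *GARS*, *WARS*, *FARSA* and *SARS*, which rose by more than *TARS*, had no match in the window. Over all tested genes with a promoter entry, 23.7% of the 177 with the letters rose and 18.7% of the 10302 without them. The E-box CACGTG was found in 1 of the 16 cytosolic and 3 of the 14 mitochondrial promoters (*CARS2*, *EARS2* and *MARS2*), against 10.2% of those of tested genes. The letters GGAATG, the core bound by the TEAD factors that act with YAP, were found in 0 cytosolic and 2 mitochondrial promoters (*WARS2* and *YARS2*), against 10.7%. A match is a run of letters and not a measured binding site.

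The genes lie on many chromosomes, and their neighbours were examined beside them. For each gene the median log2 fold change of all other tested genes within 2 Mb on either side was taken, a check chosen after the values were seen. For the 20 cytosolic genes these medians lay between -0.33 and 0.23. The 79 neighbours of *MARS* had a median of -0.012 and the 17 of *GARS* -0.062. The 25 neighbours of *PARS2* had a median of -0.19, and the 13 neighbours of *IARS2* had 0.16, in each case of the other sign than the gene itself. For *WARS*, *IARS* and *TARS* the medians were 0.22, 0.21 and 0.19, of the same sign as the gene.

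Among 9 other genes of tRNA charging, 6 rose and 0 fell, against 17.7% and 16.6% of all tested genes. *DTD1*, which removes wrongly attached D-amino acids from tRNA, and *DTD2* rose by 0.52 and 0.61 in log2 (standard errors 0.10 and 0.14). *QRSL1*, a subunit of the amidotransferase that makes mitochondrial glutaminyl-tRNA from the product of *EARS2*, changed by 0.40 (standard error 0.11), and *GATC*, another of its subunits, by 0.30 (standard error 0.11). The third subunit gene, *GATB*, had 0.064 (adjusted p = 0.75). *PSTK*, a kinase of selenocysteine tRNA charging, had 0.83 (standard error 0.28), and *MTFMT*, which formylates mitochondrial initiator methionyl-tRNA, had 0.34 (standard error 0.13). The calls for *PSTK*, *GATC* and *MTFMT* passed in 8, 4 and 1 of 12 alternatives. The adjusted p of *PSTK* was 0.12, 0.063 and 0.066 without sgCtrl replicate 1, sg*NF2*-1 replicate 1 and sg*NF2*-1 replicate 3. *GATC* did not pass when any library other than sgCtrl replicate 3 was left out, nor *MTFMT* when any of the 6 was, with adjusted p-values of up to 0.21 and 0.18.

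Among 10 genes of tRNA maturation and export, 2 rose and 0 fell, a share close to the 17.7% of all tested genes that rose. *TSEN15*, a subunit of the tRNA splicing endonuclease, rose by 0.78 in log2 (standard error 0.087, adjusted p = 1.4e-07). *TSEN34* and *TSEN54*, which also encode subunits, had -0.11 and 0.30 (adjusted p = 0.35 and 0.061). *XPOT*, the exportin of tRNA, rose by 0.29 (standard error 0.082, adjusted p = 0.0070). Of the 5 tested genes that deliver charged tRNA to the ribosome, 3 rose, also beside 17.7%. They were *EEF1B2*, the exchange factor of eEF1A, at 0.52, *TUFM*, the mitochondrial elongation factor Tu, at 0.51, and *EEF1A1* at 0.32 (standard errors 0.088, 0.086 and 0.10). *EEF1A1* did not pass without sgCtrl replicate 1 (adjusted p = 0.068) or sgCtrl replicate 2 (0.12). *EEF1G* was listed at 0 in every library and was not tested. Whether its exons are shared with another gene was not examined, so its level is uncertain.

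Among 9 genes of the response to uncharged tRNA, 5 rose and 0 fell, against 17.7% and 16.6% of all tested genes. The sensing genes *EIF2AK4* (GCN2), its partner *GCN1* and *EIF2S1*, the alpha subunit of eIF2, did not pass, at 0.15, -0.011 and 0.20 (adjusted p = 0.19, 0.94 and 0.061). *ATF4* itself had 466, 440.0 and 526 CPM in sgCtrl and 706, 671 and 740.4 CPM in sg*NF2*-1 (log2 fold change 0.56, standard error 0.086, adjusted p = 1.4e-05). Its known targets *CHAC1*, a glutathione-degrading enzyme, *SESN2*, a leucine sensor, *TRIB3*, a pseudokinase, and *DDIT3*, the transcription factor CHOP, rose by 2.05, 1.93, 1.88 and 0.95 in log2 (standard errors 0.11, 0.089, 0.088 and 0.10). These were larger than the change of any of the 39 genes. *ASNS*, asparagine synthetase, is also a known target of ATF4 but did not pass (log2 fold change 0.48, standard error 0.25, adjusted p = 0.14). Its level was low, with 3.17, 2.86 and 2.11 CPM in sgCtrl and 4.32, 3.82 and 3.23 CPM in sg*NF2*-1. Exon bases that *ASNS* may share with other genes were not examined, so this level is uncertain.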

How the data were processed

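RNA was sequenced from 3 sgCtrl and 3 sg*NF2*-1 libraries of H2452 cells. The authors deposited whole-number counts of reads on each gene, not normalized, and a second table of FPKM for the same genes. Per the submitters' processing notes, HISAT2, featureCounts 1.5.0-p3, StringTie 1.3.3b and hg38 were used, and the study's methods name DESeq2. Whether counting used strand is not given in the sources used here. Groups came from the sample titles. All 58735 gene identifiers are in GENCODE release 29.

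With R 4.3.3, counts were filtered by edgeR 4.0.16's filterByExpr (minimum count 10, minimum total 15), TMM-normalized and tested by the quasi-likelihood test over 14179 genes with Benjamini-Hochberg adjustment. FPKM were tested with limma 3.58.1 on log2(FPKM + 1), for 13038 genes with a mean of at least 0.5, a scale that understates changes of low genes. Pair ratios were compared by exact permutation tests (SciPy 1.17.1). The 39 members and the further lists were chosen with earlier results of these data known, and 2 genes of the further lists are not reported here. Values in every library are given for the 8 cytosolic and 6 mitochondrial enzymes with the largest absolute changes among those passing, the 3 scaffolds and the 2 least changed enzymes of each set. Alternatives were DESeq2 1.42.0, its size factors, library totals, other filters, a pseudocount of 0.1, a replicate block and leaving out each library. The procedures were tested on simulated counts.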

Additional observations from a re-analysis of the deposited data

How the results depend on the processing

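Of 467 values of single genes under the alternatives, 457 kept their side of the threshold. Where the main fit or the alternative passed, 0 reversed direction. The call never changed for 34 genes, and for 5 (*AIMP1*, *EPRS*, *EARS2*, *MARS2* and *TARS2*) it changed in at least 1 alternative. Some genes near 0 changed sign without passing. The log2 fold changes of *RARS* ran from -0.047 to 0.073 and those of *HARS2* from -0.12 to 0.070. The count of cytosolic genes that rose was 16 in every alternative except without sgCtrl replicate 3 and without sg*NF2*-1 replicate 3, where it was 17. The mitochondrial count ranged from 5 to 7, and *IARS2* was lower in each. On FPKM it ranged from 4 to 6, and with the thresholds of the study's methods from 2 to 3. The median log2 fold change of the mitochondrial genes, 0.25, was 0.19 with at least 10 counts in every library, which tests fewer genes, and ranged from 0.13 (without sgCtrl replicate 2) to 0.31 (without sgCtrl replicate 3) when each library was left out. With library totals in place of TMM the median of all tested genes was -0.029. DESeq2 and the fit without a filter gave 16 and 6 genes higher in the cytosolic and mitochondrial sets, as reported.

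The libraries share replicate numbers between groups. The correlations of same-numbered deviations were -0.032, 0.057 and 0.050, and those of other-numbered ones lay between -0.11 and 0.060. Pairing by number was thus not seen, but so few libraries cannot exclude it. With the replicate number as a block, 16 cytosolic, 3 scaffold and 7 mitochondrial genes were higher. The standard error of the log2 fold change was largest for *SARS2*, at 0.44 with 7 to 18 counts per library.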
